A study of Drosophila melanogaster with 23 samples.

Results

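Genes of chitin synthesis and chitin binding, 9 in number, were examined in RNA of adult fly heads: kkv, mmy, knk, rtv, serp, verm, Gasp, obst-A and obst-B. They were taken by symbol, 9 of 17559 genes listed for wild type and the 4 single heterozygotes and 9 of 12623 listed for the double heterozygote. The gene kkv was selected on its rise in CHD8/+, so its values in CHD8/+ against wild type describe that choice, and no p is given for any of the 9 genes in that comparison. The series compared heads of flies heterozygous for a mutation in an ortholog of a gene associated with autism, to ask whether the mutations change common genes. CHD8/+ carried the kis1 allele of kis, CHD2/+ the Chd1[1] allele of Chd1, WDFY3/+ the bchs58 allele of bchs and ASH1L/+ a MiMIC insertion in ash1, and wild type was w1118, with 4 libraries each. CHD8/+; PPP2R5D/+ carried kis1 together with the wrd104 allele of wrd, with 3 libraries. Heads were taken 5 to 7 days after pupation, mutations were present throughout the fly, and mutation and stock cannot be told apart. The libraries read the 3′ end of transcripts, and values are normalized counts, that is, estimated counts scaled by the authors to make libraries comparable.

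Chitin, a polymer of N-acetylglucosamine, is the scaffold of the insect cuticle, of the lining of tracheae and of the corneal lens. The enzyme encoded by mmy makes its precursor UDP-N-acetylglucosamine, and the chitin synthase encoded by kkv polymerises it and extrudes the chain at the apical membrane of epidermal and tracheal cells. The products of knk and rtv are needed for chitin fibres to become ordered outside the cell, serp and verm encode secreted deacetylases that modify it, and Gasp, obst-A and obst-B encode secreted proteins of the obstructor family that bind it. Most of this work was done in the embryo and larva, when cuticle is laid down.

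The genes lie apart in the genome (BDGP6), with 1 exception. kkv spans 3R from 5378093 to 5392866, Gasp 3R from 6088799 to 6100887 and knk 3R from 10122365 to 10125664, all on the minus strand. The deacetylase genes are neighbours on the minus strand of 3L, verm from 19690033 to 19695260 and serp from 19700977 to 19708015, with 5716 bases and 0 annotated genes between them. mmy lies on 2L from 6468538 to 6473904 on the minus strand and obst-B on 2L from 10032690 to 10038954 on the plus strand. rtv lies on X from 11152484 to 11153990 on the minus strand and obst-A on X from 20239855 to 20243209 on the plus strand. Exons of knk overlap the antisense RNA asRNA:CR46038 and exons of rtv overlap Lint-1, each on the opposite strand. Whether reads were assigned by strand is not given in the sources used here, so these values may hold reads of the partner gene.

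Normalized counts summed to 3982753 to 8558268 per library in the single heterozygotes and wild type, highest in ASH1L/+ replicate 3. The depth behind them was estimated from the worth of 1 read at 2.83 to 9.54 M reads (median 5.11 M), lowest in CHD2/+ replicate 2. The worth of 1 read was highest in ASH1L/+ replicate 3, at 2 normalized counts. The paper states a higher median of mapped reads per sample, so this depth and the worth of 1 read are rough estimates. Neuron markers were present in every library, at 3859 to 16215 summed normalized counts for 5 genes, and photoreceptor markers at 82242 to 180562 for 6 genes. A gene was tested where it reached 10 normalized counts in at least 4 of the 20 libraries, which 9588 genes did. This held for 8 of the 9 chitin genes. obst-B reached 10 in 3 libraries and was not tested, and kkv passed with exactly 4 libraries, 3 of them CHD8/+ and the other CHD2/+ replicate 2, so its passing the filter rested on its high values.

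The chitin synthase gene kkv was scarcely detected in wild type heads and stood high in a few mutant libraries. It had 5.998, 71.7, 51.4 and 17.0 normalized counts in CHD8/+ replicates 1 to 4, against 4.64, 2.16, 1.58 and 0 in wild type replicates 1 to 4. All 4 CHD8/+ libraries lay above every wild type library, replicate 1 by little and replicate 2 by most. In wild type, 3 of 4 values were at or under the worth of 3 reads, which was 1.95 to 3.17 normalized counts. The mean was 36.5 ± 30.4 in CHD8/+ and 2.10 ± 1.93 in wild type (SD, n = 4 each), a log2 fold change of 3.34 (standard error 1.01) after adding 1 to each value, which understates the change of low genes. CHD2/+ replicates 1 to 4 had 0, 39.4, 1.91 and 1.05, so that a lone library was high. WDFY3/+ had 0.747 to 7.14 and ASH1L/+ 0 to 3.87, both overlapping wild type. The log2 fold change was 0.60 in CHD2/+, 0.52 in WDFY3/+ and 0.01 in ASH1L/+ (standard error 1.01 each), and none passed the test (limma, Benjamini-Hochberg over all genes tested: adjusted p = 0.878 in CHD2/+, 1 in WDFY3/+ and 0.999 in ASH1L/+). Without CHD2/+ replicate 2, the CHD2/+ value turned to -0.52 (adjusted p = 0.94 from limma).

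**Figure D1:**
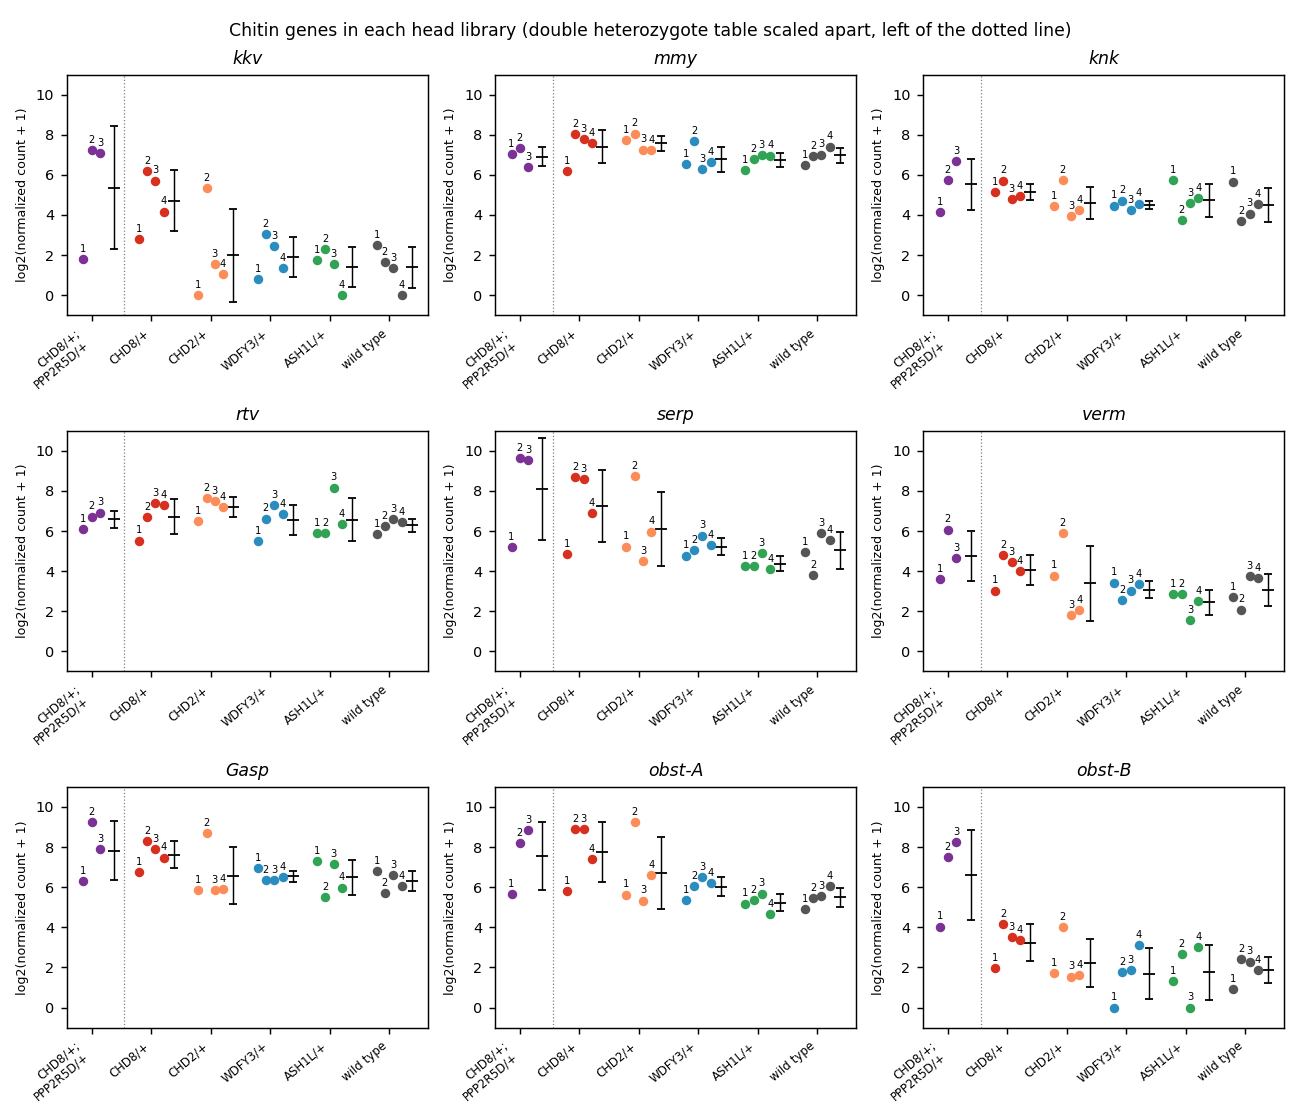
Level of each of the 9 genes in each library on the log2(normalized count + 1) axis, by genotype; points are libraries with their replicate numbers, and black bars give the mean ± SD of each genotype. kkv, serp, obst-A, Gasp, verm and obst-B stand highest in CHD8/+ replicates 2, 3 and 4 and in CHD2/+ replicate 2 among the 20 libraries right of the dotted line; the double heterozygote, left of it, was scaled apart.

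mmy, which supplies the precursor of chitin, was measured well in every library. It had 72.7, 259.9, 219 and 189.8 normalized counts in CHD8/+ replicates 1 to 4, against 88.6, 122, 128 and 169 in wild type replicates 1 to 4. CHD8/+ held both the lowest of these libraries, replicate 1, and the 3 highest. CHD2/+ had 210.4, 264, 152 and 149.8, of which 2 lay above every wild type library. The log2 fold change was 0.43 in CHD8/+, 0.60 in CHD2/+, -0.19 in WDFY3/+ and -0.22 in ASH1L/+ (standard error 0.38 each). The adjusted p from limma was 0.711 in CHD2/+, 1 in WDFY3/+ and 0.999 in ASH1L/+.

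Neither gene for organising the chain outside the cell kept the order of libraries seen for kkv. knk, which encodes a protein needed for ordered chitin, had 34.1, 51.2, 27.0 and 29.3 normalized counts in CHD8/+ replicates 1 to 4, against 49.7, 11.8, 15.7 and 22.3 in wild type replicates 1 to 4. The groups overlapped, since wild type replicate 1 was among the 4 highest of all 20 libraries. rtv, which encodes a small membrane protein needed for ordered chitin, had 44.9, 101.5, 165 and 158 in CHD8/+ replicates 1 to 4, against 56.6, 74.9, 94.9 and 85.3 in wild type replicates 1 to 4. The highest library for rtv was ASH1L/+ replicate 3 at 285, where the other ASH1L/+ libraries had 58.0 to 80.5. That library also had the highest sum of normalized counts. CHD2/+ had 88.7, 199, 180.3 and 145 for rtv, with 3 of 4 above every wild type library. Its log2 fold change of 0.93 in CHD2/+ (standard error 0.50) had an unadjusted p = 0.076 and an adjusted p = 0.71 from limma. The other log2 fold changes were 0.65 in CHD8/+, 0.11 in CHD2/+, 0.00 in WDFY3/+ and 0.24 in ASH1L/+ for knk (standard error 0.47) and 0.44 in CHD8/+, 0.28 in WDFY3/+ and 0.29 in ASH1L/+ for rtv, each at an adjusted p of 0.959 or more from limma outside CHD8/+.

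The deacetylase gene serp differed widely between libraries. It had 28.2, 409, 384 and 119 normalized counts in CHD8/+ replicates 1 to 4, against 29.5, 13.0, 58.3 and 46.3 in wild type replicates 1 to 4. Replicates 2, 3 and 4 of CHD8/+ lay above every wild type library, and replicate 1 stood within the wild type range. CHD2/+ had 36.2, 426, 21.6 and 61.6, again with replicate 2 far above the rest. serp averaged 235 ± 191 in CHD8/+ and 36.8 ± 19.8 in wild type (SD, n = 4 each), a log2 fold change of 2.21 (standard error 0.79). Its log2 fold change was 1.06 in CHD2/+ (unadjusted p = 0.195, adjusted p = 0.729 from limma), 0.18 in WDFY3/+ (adjusted p = 1 from limma) and -0.67 in ASH1L/+ (adjusted p = 0.999 from limma), with the same standard error. Without CHD2/+ replicate 2, the CHD2/+ value of serp was 0.18 (adjusted p = 0.969 from limma). In ASH1L/+ all 4 libraries had 16.2 to 29.2, at the low end of the wild type range. The neighbouring deacetylase gene verm was much lower. It had 7.18, 26.5, 20.6 and 14.8 in CHD8/+ replicates 1 to 4 and 12.7, 58.7, 2.54 and 3.13 in CHD2/+ replicates 1 to 4, against 5.53, 3.24, 12.6 and 11.6 in wild type replicates 1 to 4. The same 4 libraries were highest for verm as for serp, with smaller distances. The log2 fold change of verm was 1.01 in CHD8/+, 0.33 in CHD2/+, 0.03 in WDFY3/+ and -0.62 in ASH1L/+ (standard error 0.71 each), with adjusted p = 0.901 in CHD2/+, 1 in WDFY3/+ and 0.999 in ASH1L/+ from limma.

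The 3 obstructor genes had the same high libraries. obst-A had 54.5, 479, 479 and 170.3 normalized counts in CHD8/+ replicates 1 to 4, against 29.3, 43.0, 46.3 and 64.9 in wild type replicates 1 to 4. Only CHD8/+ replicate 1 fell within the wild type range. CHD2/+ had 48.7, 605, 39.3 and 96.7 for obst-A. Its mean was 296 ± 217 in CHD8/+ and 45.9 ± 14.7 in wild type (SD, n = 4 each), a log2 fold change of 2.26 (standard error 0.70). It was 1.21 in CHD2/+ (unadjusted p = 0.098, adjusted p = 0.711 from limma), 0.53 in WDFY3/+ (adjusted p = 1 from limma) and -0.27 in ASH1L/+ (adjusted p = 0.999 from limma). Without CHD2/+ replicate 2, the CHD2/+ value of obst-A was 0.36 (adjusted p = 0.935 from limma). WDFY3/+ had 39.6 to 88.98, with 3 of 4 libraries above every wild type library, and ASH1L/+ 24.3 to 50.5. Gasp was at a higher base level in wild type. It had 105.5, 316, 239 and 177 in CHD8/+ replicates 1 to 4, against 111, 51.0, 96.3 and 65.9 in wild type replicates 1 to 4, a log2 fold change of 1.31 (standard error 0.55). CHD2/+ had 57.6, 411, 57.0 and 58.2 for Gasp, so that 3 libraries agreed closely at the wild type level and replicate 2 stood apart from them. Its log2 fold change was 0.28 in CHD2/+, 0.25 in WDFY3/+ and 0.20 in ASH1L/+ (adjusted p = 0.892, 1 and 0.999 from limma, in that order). Without CHD2/+ replicate 2, the log2 fold change in CHD2/+ turned to -0.42 for Gasp and to -0.50 for verm (adjusted p = 0.93 each from limma). obst-B was near the detection limit, at 2.90, 16.7, 10.4 and 9.21 in CHD8/+ replicates 1 to 4 and 2.29, 14.997, 1.90 and 2.07 in CHD2/+ replicates 1 to 4, against 0.908, 4.29, 3.91 and 2.64 in wild type replicates 1 to 4. WDFY3/+ and ASH1L/+ had 0 to 7.60 for obst-B.

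**Figure D2:**
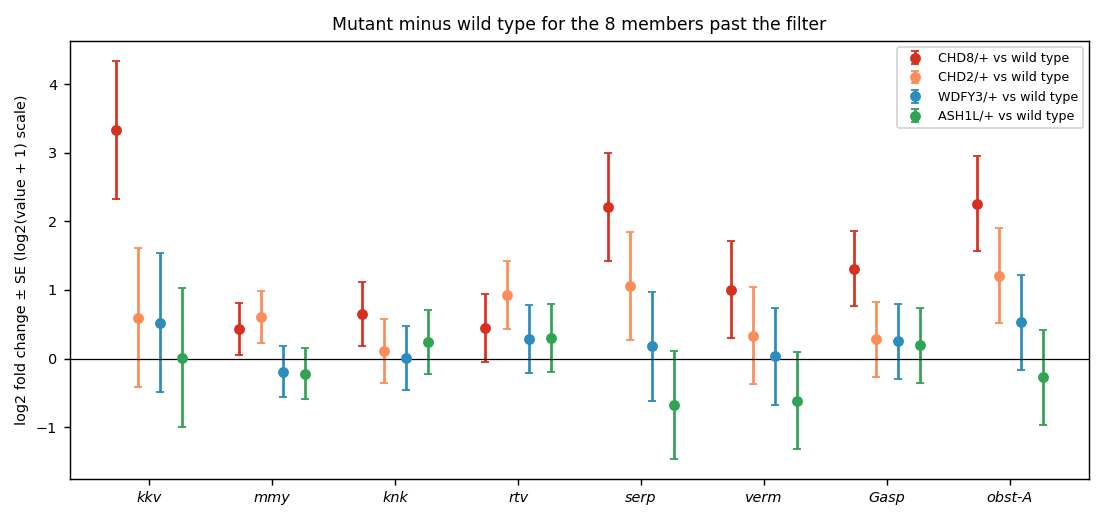
Log2 fold change of each mutant against wild type for the 8 genes past the filter, on the log2(value + 1) scale; points are limma estimates from 4 libraries a genotype and bars are ± 1 standard error. CHD8/+ values lie above 0 for all 8 genes, from 0.43 for mmy to 3.34 for kkv, which was chosen for that rise. Over all genes tested, 48.8% lay above 0 in CHD8/+. ASH1L/+ values lie on both sides of 0.

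None of the 8 genes was called in any mutant, a call being a 1.5-fold or larger difference with adjusted p below 0.05. In CHD8/+ 0.271% of all 9588 genes tested were called, and since kkv was chosen on that comparison nothing is read from it. In CHD2/+ 0.188% were called, in WDFY3/+ 0.0521% and in ASH1L/+ 0.0939%. Of the 8 genes, 0 had an unadjusted p under 0.05 in CHD2/+, WDFY3/+ or ASH1L/+, where 664, 313 and 250 of all genes did in that order. The median log2 fold change of the 8 genes was 1.16 in CHD8/+, 0.60 in CHD2/+, 0.21 in WDFY3/+ and -0.10 in ASH1L/+. Over all genes tested it was -0.01, -0.02, 0.01 and 0.03 in that order. The CHD8/+ median of the 8 genes includes kkv, which was chosen on that comparison, so it describes that choice and no shift of the set is read from it. The CHD2/+ median rests in part on replicate 2. Without that library the CHD2/+ values ran from -0.52 for kkv to 0.78 for rtv. Those of kkv, knk, verm and Gasp then lay below 0, and those of mmy, rtv, serp and obst-A above it. The 4 comparisons share the wild type libraries.

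The genes differed in which libraries were high, and the pattern crossed genotypes. For 6 of the 9 genes (kkv, serp, verm, Gasp, obst-A and obst-B), the 4 highest of the 20 libraries were the same: CHD8/+ replicates 2, 3 and 4 and CHD2/+ replicate 2. These 4 libraries were named after the values were seen, and 0.897% of all genes tested (86 of 9588) had them on top. Of the 6 genes, kkv was selected on its rise in CHD8/+ and passed the filter only through these 4 libraries. obst-B was not among the genes tested. The 2 shares are therefore descriptions, and nothing is read from setting them side by side. For mmy, knk and rtv they were not the top 4. CHD2/+ replicate 2 was among the 4 highest libraries for 9 of 9 genes, CHD8/+ replicates 2 and 3 for 8 each, CHD8/+ replicate 4 for 6 and CHD8/+ replicate 1 for 0. serp shows the size of the gap: these 4 libraries had 119 to 426 normalized counts, and the other 16 had 13.0 to 61.6. For Gasp the gap was small, 177 to 411 against 44.3 to 158.

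**Figure D3:**
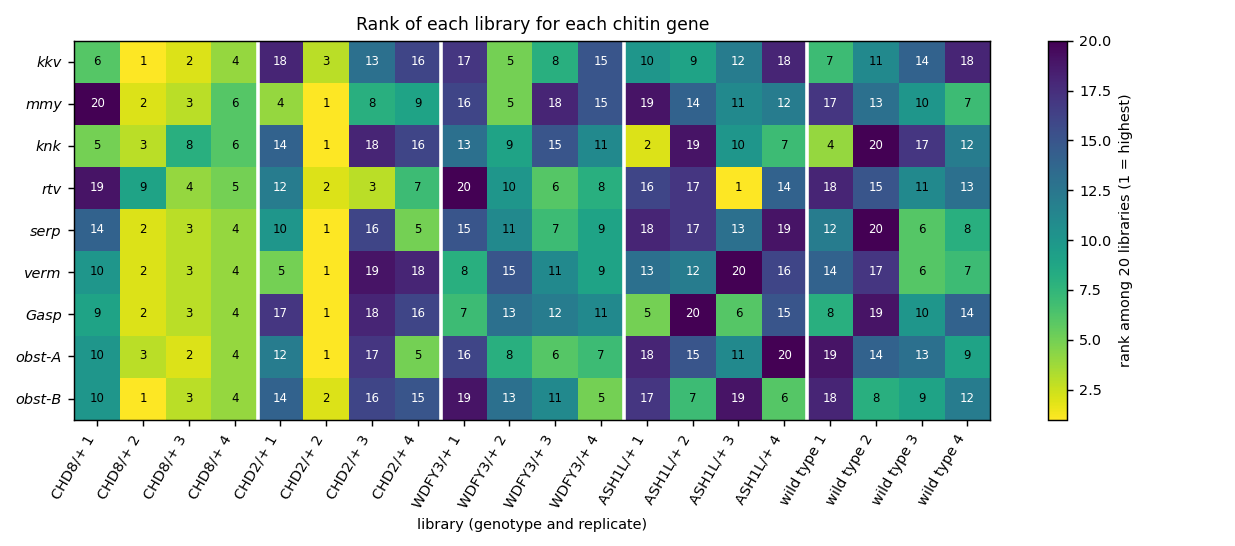
Rank of each of the 20 libraries for each of the 9 genes (1, yellow, is the highest; tied values share a rank), with genotype and replicate along the horizontal axis and genes down the vertical axis. The columns of CHD8/+ replicates 2, 3 and 4 and CHD2/+ replicate 2 are yellow to light green for kkv, serp, verm, Gasp, obst-A and obst-B, and CHD8/+ replicate 1 is not.

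Leaving those 4 libraries out, a setting chosen after seeing the data, left CHD8/+ replicate 1 alone in its genotype. The log2 fold change in CHD8/+ was then 1.43 for kkv, 0.65 for knk (0.65 with all libraries), 0.44 for Gasp, 0.30 for obst-A, -0.02 for verm, -0.18 for serp, and -0.76 for both mmy and rtv, with the lone library assumed to vary like the other groups.

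Genes of the cuticle itself were high in the same libraries. The cuticle markers were 126 genes of cuticle protein families, 33 of them past the filter and 34 to 82 of them at 0 in a library. They summed to 5276, 13953, 15452 and 10736 normalized counts in CHD8/+ replicates 1 to 4 and 4323, 15253, 8133 and 4718 in CHD2/+ replicates 1 to 4, against 3009, 3195, 4103 and 4300.2 in wild type replicates 1 to 4. WDFY3/+ had sums of 3754 to 6534. ASH1L/+ replicate 3 had 13636, where the other ASH1L/+ libraries had 3383 to 3710.4. There Cpr65Au, a cuticle protein gene, gave 10723 of the sum, and kkv had 1.95, serp 29.2 and obst-A 50.5. Without the highest marker of each library the sums were 7278 to 10452 in CHD8/+ replicates 2, 3 and 4 and in CHD2/+ replicate 2, and 1650 to 3498 in the other 16. Of the 126 markers, 73 had a higher mean in CHD8/+ than in wild type, 52 in CHD2/+, 47 in WDFY3/+ and 51 in ASH1L/+. The median log2 difference was 0.16 in CHD8/+ and 0 in CHD2/+, WDFY3/+ and ASH1L/+. Markers that were not higher thus include some without any difference, and were not all lower.

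Other tissues of the head also varied between libraries. Neuron markers summed to 13402, 7876, 5992 and 5041 in CHD8/+ replicates 1 to 4 and to 7071, 3859, 3869 and 7413 in CHD2/+ replicates 1 to 4, against 6314 to 13738 in wild type, and all 5 had a lower mean in CHD2/+ than in wild type. Photoreceptor markers summed to 98155 to 153114 in CHD8/+ and 82242 to 174848 in CHD2/+, against 83363 to 148487 in wild type. CHD2/+ replicate 2, among the 4 highest libraries for all 9 chitin genes, had the lowest sum of the 20 libraries for both lists. Muscle markers (7 of 8 found) summed to 18964, 56424, 67483 and 45787 in CHD8/+ replicates 1 to 4 and to 17450.4, 44519, 22351 and 23683 in CHD2/+ replicates 1 to 4, against 18484 to 25891 in wild type, with Act88F at 0 in 2 libraries. WDFY3/+ had 18146 to 38080 and ASH1L/+ 19274 to 31859, so CHD8/+ replicates 2, 3 and 4 and CHD2/+ replicate 2 had the highest muscle sums too. By the mean log2 of the markers, CHD2/+ replicate 2 was not among the highest, at 9.72 where ASH1L/+ replicate 4 had 10.16. Corneal lens markers (3 of 3, 2 of them also cuticle markers) summed to 2553 to 4091 in CHD8/+, 1244 to 3185 in CHD2/+, 1065 to 1898 in WDFY3/+ and 515 to 1082 in ASH1L/+, against 569 to 1096 in wild type. Trachea markers (3 of 5 found, none at 0) summed to 764 to 1631 in CHD8/+ and 657 to 1278 in CHD2/+, against 571 to 958 in wild type. Most of each sum came from pio, at 481 to 1557 over the 20 libraries. On the log2 scale, 1 of the 3 markers had a higher mean in CHD8/+ than in wild type, and 1 of 3 in CHD2/+. The median differences of the 3 were -0.15 and -0.23 in that order. The trachea marker trh had 12.6 to 74.98 over the 20 libraries. Haemocyte markers (He at 0 in 2 libraries, NimC1 in 1) summed to 197 to 884 in CHD8/+ and 185 to 292 in CHD2/+, against 116 to 719 in wild type, and fat body markers (Fbp1 at 0 in 8 libraries) to 34674 to 84930 in CHD8/+ and 31212 to 77542 in CHD2/+, against 22552 to 81268 in wild type. Glia markers summed to 698 to 1152 in CHD8/+ and 602 to 1054 in CHD2/+, against 529 to 940 in wild type. The part of these tissues in the levels of the chitin genes was not tested, and in whole heads fewer cells of a type and less RNA per cell cannot be told apart.

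**Figure D4:**
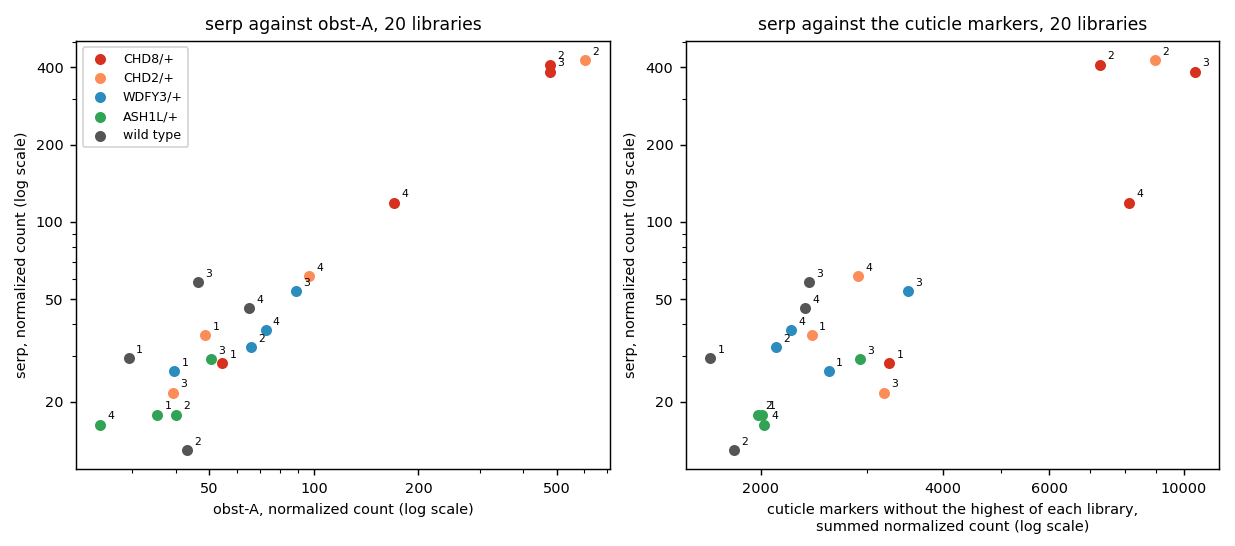
Normalized count of serp (log axis) against that of obst-A (left, log axis) and against the summed normalized count of the cuticle markers without the highest marker of each library (right, log axis), in the 20 libraries with their replicate numbers. CHD8/+ replicates 2, 3 and 4 and CHD2/+ replicate 2 lie at the upper right in both panels, with serp at 119 to 426, and the other 16 libraries lie together at serp values of 13.0 to 61.6.

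Around the 9 genes, 61 genes of the same chemistry and tissue were listed: 56 were in the tables and 40 were tested. Of these 40, 1 was called higher in CHD2/+ and 0 were called in CHD8/+, WDFY3/+ and ASH1L/+. Over all genes tested, 0.188% were called in CHD2/+, 0.271% in CHD8/+, 0.0521% in WDFY3/+ and 0.0939% in ASH1L/+. The called gene of the 40 was ChLD3, a relative of the chitin deacetylases. It had 43.1, 62.3, 89.95 and 46.8 normalized counts in CHD2/+ replicates 1 to 4, against 23.0, 5.38, 3.14 and 0 in wild type replicates 1 to 4. Every CHD2/+ library lay above every wild type library, and the log2 fold change was 3.56 (standard error 0.69, adjusted p = 0.027 from limma). The call was lost in 10 of 20 other settings: with no filter (adjusted p = 0.0515 from limma), with CHD2/+ and wild type alone (0.192), without CHD2/+ replicate 1, 2, 3 or 4 (0.0646, 0.105, 0.118 and 0.065), without wild type replicate 2, 3 or 4 (0.0808, 0.098 and 0.098) and without the 4 libraries high for serp (0.241). ChLD3 averaged 32.8 ± 8.88 in CHD8/+, 42.0 ± 17.1 in WDFY3/+ and 61.2 ± 64.0 in ASH1L/+ (SD, n = 4 each), with log2 fold changes of 2.71, 3.02 and 3.18 against the same wild type libraries. The highest libraries for ChLD3 were ASH1L/+ replicate 3 at 157 and CHD2/+ replicate 3, so it did not follow the libraries that were high for serp.

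The median log2 fold change of the 40 genes was 0.30 in CHD8/+, 0.13 in CHD2/+, 0.18 in WDFY3/+ and 0.01 in ASH1L/+, and 27, 28, 27 and 21 of them lay above 0 in that order. Over all genes tested, 48.8%, 48.4%, 51.3% and 53.3% lay above 0 in the same order. The list was chosen with earlier results known, and no test of it was run. For the supply of UDP-N-acetylglucosamine, 0 of 7 tested genes were called. Gfat2, which makes glucosamine 6-phosphate upstream of mmy, had 42.0, 30.2, 29.1 and 43.7 normalized counts in CHD2/+, against 10.1, 16.1, 24.3 and 12.8 in wild type (log2 1.19, unadjusted p = 0.027, adjusted p = 0.66 from limma). Treh, the trehalase, stood at a log2 fold change of 0.43 for WDFY3/+ and Hex-A, a hexokinase, at -0.39 for CHD2/+ (adjusted p of 0.71 or more from limma). Of the other genes for chitin synthesis and assembly, 3 were tested and 0 called, with snsl at -0.85 in WDFY3/+, exp, which is needed for chitin deposition in tracheae, at 0.52 in CHD2/+ and snu at 0.17 in WDFY3/+ (adjusted p of 0.76 or more).

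Of 15 tested chitinases, chitinase-like growth factors and hexosaminidases, which include the enzymes that break chitin down, 0 were called in any mutant, and their median was 0.32 in CHD8/+, 0.22 in CHD2/+, 0.03 in WDFY3/+ and -0.14 in ASH1L/+. The smallest unadjusted p values belonged to Idgf5 (log2 -0.76 in WDFY3/+), the chitinase gene Cht6 (log2 0.77 in CHD2/+) and the hexosaminidase gene Hexo1 (log2 0.72 in WDFY3/+), each with an adjusted p of 0.71 or more from limma. Cht6 had 58.2, 174, 107 and 59.0 normalized counts in CHD8/+ replicates 1 to 4 and 66.5, 189, 45.3 and 54.8 in CHD2/+ replicates 1 to 4, against 17.98 to 65.1 in wild type, so that CHD8/+ replicate 2 and CHD2/+ replicate 2 were its highest libraries. Of 9 other obstructors and peritrophins, 2 were tested. Peritrophin-A, another secreted chitin-binding protein, had 5.55, 48.5, 25.1 and 36.9 normalized counts in CHD8/+, against 3.47, 5.10, 2.23 and 0.741 in wild type, a log2 fold change of 2.76. In CHD2/+ it had 5.78, 23.2, 2.41 and 11.003 (log2 1.36, adjusted p = 0.71 from limma). obst-E had a log2 fold change of 0.60 in CHD2/+ (adjusted p = 0.71). The deacetylase gene Cda5 had 0.33 in CHD2/+ (adjusted p = 0.86). Of 5 cuticle tanning genes 0 were called, with the beta-alanine gene b at 0.78 in CHD2/+, and e and t, which attach and remove beta-alanine, at 0.72 and 0.71 in WDFY3/+ (adjusted p of 0.71 or more). Of 6 epidermal regulators 0 were called, with vvl at -0.32 in CHD2/+, ftz-f1 at 0.50 in WDFY3/+ and the ecdysone receptor gene EcR at 0.39 in ASH1L/+ (adjusted p of 0.75 or more).

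Over the 20 libraries the members followed each other to very different degrees. The correlations of log2(value + 1) below are descriptions over libraries that share genotypes, replicate numbers and the 4 high libraries. serp and obst-A were each the gene most like the other among 9587 genes, at Pearson r = 0.96, and r = 0.94 after genotype means were taken out. kkv had r = 0.84 with obst-A, 0.80 with serp, 0.78 with Gasp and 0.60 with verm, but 0.50 with knk, 0.45 with mmy and 0.30 with rtv. The median r of kkv with all tested genes was 0.02. verm had r = 0.81 with its neighbour serp. Gasp and knk had r = 0.76, while knk and rtv, which act in the same step, had r = -0.07. The 5 other genes most like kkv were CG13545 (r = 0.89), CG7860 (r = 0.89), CG13044 (r = 0.88), CG17104 (r = 0.87) and Vajk3 (r = 0.87). CG13545 had 11.03 to 43.7 normalized counts in CHD8/+ replicates 2, 3 and 4 and CHD2/+ replicate 2 and at most 0.768 in the other 16 libraries. Like kkv, CG13545 and CG13044 passed the filter only through these 4 libraries. Their likeness to kkv thus follows in part from the choice of genes, and nothing is read from it. Vajk3 had 246 to 711 in the same 4 libraries and at most 21.4 in the others. The gene most like each other member was kar for mmy (r = 0.86), ckd for knk (r = 0.79), Gat, a GABA transporter, for rtv (r = 0.95), yellow-d2 for verm (r = 0.84) and CG3777 for Gasp (r = 0.87). Of these, yellow-d2 too passed the filter only through the 4 high libraries. Among genes outside the 9, serp was most like Crys, a corneal lens crystallin (r = 0.93), and obst-A most like CG8736 (r = 0.94).

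The flies heterozygous for both kis and wrd showed an uneven pattern between libraries too. Their table was scaled apart from the others and held no wild type or single heterozygote libraries, so levels are given without a test. Genotype cannot be told apart from other differences between the tables, such as preparation. kkv had 2.49, 148 and 132.9 normalized counts in CHD8/+; PPP2R5D/+ replicates 1 to 3, so replicates 2 and 3 were high and replicate 1 was at or under the worth of 3 reads (2.54). The same contrast between replicate 1 and replicates 2 and 3 held for serp at 35.2, 791 and 734, for obst-A at 49.2, 294 and 461, for Gasp at 78.3, 607 and 236, for obst-B at 15.4, 182 and 305, for verm at 10.99, 66.2 and 24.3 and for knk at 16.7, 53.0 and 101.8. rtv was also lowest in replicate 1, at 68.1, 104 and 119.9. mmy did not follow, with 130.3, 159 and 81.5. The cuticle markers found in that table, 95 of 126, summed to 12330, 30451 and 31408 in replicates 1 to 3, and the muscle markers to 13017, 45604 and 37486. The part of these in the levels was not tested.

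To set the genotypes side by side without the scale of the tables, each gene was ranked within its library among the 12476 genes that both kinds of table hold, with 100 for the highest. Ranks take out the scale but no other difference between the kinds of table, and that cannot be told apart from genotype. kkv stood at percentile 21.9, 71.3 and 69.4 in CHD8/+; PPP2R5D/+ replicates 1 to 3 and at 29.0, 65.3, 59.4 and 42.6 in CHD8/+ replicates 1 to 4, against 9.46 to 25.1 in wild type. serp stood at 44.6, 92.3 and 91.04 in the double heterozygote and at 48.4, 89.3, 87.1 and 74.4 in CHD8/+, against 36.8 to 62.1 in wild type. obst-B stood at 35.0, 74.7 and 82.04 in CHD8/+; PPP2R5D/+ and at 21.8 to 39.0 in CHD8/+, against 12.9 to 29.0 in wild type, so that replicates 2 and 3 of the double heterozygote lay above every CHD8/+ library. Relative to RpL32, a ribosomal protein gene used as reference, the median log2 ratio in the double heterozygote minus that in wild type was 4.24 for obst-B, 4.12 for kkv, 2.67 for serp, 1.43 for obst-A, 0.26 for knk, 0.19 for Gasp, -0.12 for verm, -0.93 for rtv and -1.55 for mmy. RpL32 itself had 7208 to 9181 normalized counts in the double heterozygote, against 2325 to 3251 in wild type. With Act5C, an actin gene, as reference, the same difference was 5.86 for obst-B, 5.57 for kkv, 4.65 for serp, 3.03 for obst-A, 2.03 for knk, 1.86 for verm, 1.75 for Gasp, 0.69 for rtv and 0.62 for mmy. The direction for verm, rtv and mmy thus rested on the reference, and the size for every gene did too.

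**Figure D5:**
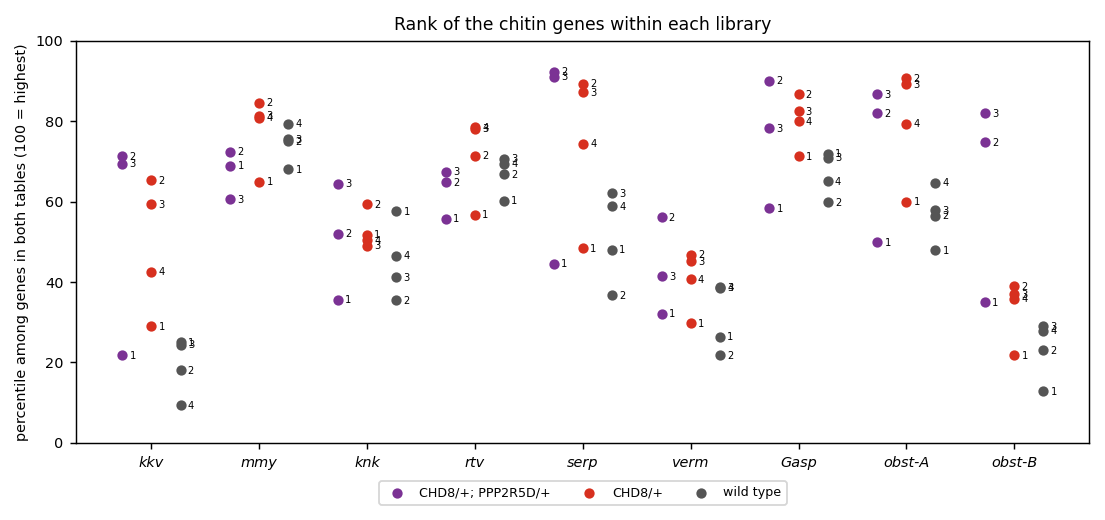
Percentile of each of the 9 genes among the 12476 genes in both kinds of table, within each library of CHD8/+; PPP2R5D/+, CHD8/+ and wild type; points are libraries with their replicate numbers. Replicate 1 of the double heterozygote and of CHD8/+ lies near the wild type libraries for kkv and serp, at percentiles 21.9 to 48.4, while the other mutant libraries lie above them.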

How the data were processed

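RNA of whole adult heads was sequenced at the 3′ end in 23 libraries. The authors deposited a signal per gene and library, namely normalized counts: reads were assigned to BDGP6 transcripts with Salmon 0.12.0, collated per gene and scaled with DESeq2, per the study's methods. The sheets are named normalized counts although the files are named raw counts. Because values are fractional and could not be turned back into whole reads, no count model was used. The double heterozygote has its own scaling and was not tested. All columns of values were used.

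The scale was log2 of the value plus 1. Genes reaching 10 in 4 or more of the 20 libraries were fitted with 1 mean per genotype in limma 3.58.1 (R 4.3.3) with a variance trend, mutants were set against wild type, and p-values were adjusted by Benjamini-Hochberg over 9588 genes. A call needed an adjusted p under 0.05 and at least 1.5-fold. The fit was tested on simulated data. Standard errors on the log2 scale had a median of 0.436. The study models a batch, and its assignment to libraries is not given in the sources used here. Labels number replicates 1 to 4 in each genotype, and the study calls them biological replicates. Same-numbered libraries of a mutant and wild type deviated together at correlations of 0.211 to 0.731 in CHD8/+, 0.316 to 0.736 in WDFY3/+ and 0.341 to 0.782 in ASH1L/+, which counted as paired (over 0.1 in every pair). CHD2/+ (0.0732 to 0.46) did not, with the lowest value in replicate 2. Most libraries were most like the wild type library of their own number, with 3 exceptions. CHD8/+ replicate 3 was most like wild type replicate 4, and CHD8/+ replicate 4 most like wild type replicate 3. CHD2/+ replicate 2 was most like wild type replicate 1.

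The 9 genes and the lists around them were chosen with earlier results of these data known. Other genes named are called genes or the 3 smallest p of each list outside CHD8/+, the genes most correlated with a member, and markers. Cpr, which encodes cytochrome P450 reductase, matched the name rule for cuticle markers and was left out. Positions are from the Ensembl 115 annotation. Intervals and floors from counts cover counting error only. The worth of 1 read was taken from the commonest low value of a library. Alternatives were other scalings, added values, filters, models and thresholds, replicate number as a block, leaving out each library and other reference transcripts. Figures were drawn with matplotlib 3.10.9 in Python 3.11.15, with numpy 2.4.6 and pandas 2.3.3.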

Additional observations from a re-analysis of the deposited data

Results flagged for a closer look

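Of 45 groups of 4 libraries examined, 9 genes in 5 genotypes, 3 had a library set apart by Dixon's test at the 95% level. Its gap to its nearest neighbour took an unusually large part of the group's range, both taken on the log2(value + 1) scale. Chance gives about 1 in 20 (2.25 groups). On the scale of normalized counts the gaps differ. There CHD2/+ replicate 2 also stood far above the rest for kkv, serp and obst-A, which did not pass on the log2 scale. The obstructor gene Gasp in CHD2/+ had replicate 2 at 411 normalized counts, with a gap of 0.989 of the range. obst-B in CHD2/+ had the same library at 14.997, with a gap of 0.927. The deacetylase gene serp in ASH1L/+ had replicate 3 at 29.2, with a gap of 0.847, although this value lies within the wild type range.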

How the results depend on the processing

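The count of chitin genes called was 0 in each mutant under every alternative run except that, with replicate number as a block (the paired fit), 1 gene passed the call rule in CHD8/+, which was kkv. Since kkv was chosen for its rise in CHD8/+, that is no test of it. The block changed no other call of a chitin gene, but it moved adjusted p values from limma. In CHD2/+ they went from 0.711 to 0.138 for rtv, 0.271 for obst-A and 0.295 for mmy, and were 0.441 or more for the others. In WDFY3/+ and ASH1L/+ they were 0.889 or more with the block. Over all genes tested the block gave 71 calls in CHD8/+, 116 in CHD2/+ (whose numbers did not count as paired), 24 in WDFY3/+ and 20 in ASH1L/+, where the model without it gave 26, 18, 5 and 9 in that order. For CHD2/+, WDFY3/+ and ASH1L/+ the log2 fold change of single genes kept its direction and its side of the threshold in most settings, and none was called in any. It turned in the following. With upper-quartile scaling it was -0.0351 for knk and -0.00847 for verm in WDFY3/+ and -0.0199 for kkv in ASH1L/+. With 5 added before the log it was -0.0177, -0.00674 and -0.0018 for these in the same order, and with quantile normalization kkv in ASH1L/+ stood at -0.14. Leaving out 1 library in turn gave, in CHD2/+, -0.52 to 1.26 for kkv, -0.27 to 0.50 for knk, -0.50 to 0.86 for verm and -0.42 to 0.52 for Gasp, each lowest without CHD2/+ replicate 2. In WDFY3/+ it gave -0.26 to 0.40 for knk, -0.24 to 0.46 for serp and -0.29 to 0.27 for verm. In ASH1L/+ it gave -0.45 to 0.48 for kkv, -0.0935 to 0.635 for knk, -0.235 to 0.524 for rtv and -0.0795 to 0.525 for Gasp. Without CHD2/+ replicate 2 and CHD8/+ replicates 2, 3 and 4, which was added after seeing the data, the CHD2/+ values were -0.52 for kkv, -0.27 for knk, -0.50 for verm and -0.42 for Gasp. The cause was not tested. The reference eEF1alpha1 could not be run, since its identifier was not matched in the tables of the single heterozygotes. By the estimated worth of 1 read, which is rough, values of kkv and obst-B in most libraries rest on a few reads, and differences among them were not detectable.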
